A study of Homo sapiens with 6 samples.

Results

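Immune checkpoint ligands are surface or secreted proteins through which a tumour cell restrains or tunes the immune cells that meet it. CD274 (PD-L1) and PDCD1LG2 (PD-L2) bind PD-1 on T cells, PVR and NECTIN2 bind the TIGIT family of receptors on T and natural killer cells, CD47 binds SIRPA on macrophages and blocks engulfment, and NT5E (CD73) makes adenosine, which dampens T cells. CD276 (B7-H3), LGALS9 (galectin-9) and the tumour necrosis factor family ligands CD70 and TNFSF9 complete the set. Melanoma is known for its responses to antibodies that block PD-1, and in many tumour cells PD-L1 transcription is induced by interferon, with IRF1 among the activators. The 10 genes were chosen by name from the 58302 gene IDs of the count tables, and each matched a single Ensembl ID with counts.

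Messenger RNA was measured in A375, a human melanoma cell line, in 3 libraries of cells stably carrying an empty vector (EV) and in 3 of cells stably overexpressing HMGB2 (HMGB2OE), a chromatin protein that bends DNA. Both lines were made by lentiviral transduction, no other treatment was labelled, and the reporting form of the study calls the 3 replicates technical, so the p-values measure how pellets of the same line vary, and independent transductions were not sampled. Between 45925053 and 56755212 reads per library were assigned to genes, the fewest in HMGB2OE replicate 3. Reads that mapped to more than 1 place made up 10.6% in that library and between 2.58% and 4.89% in the others. HMGB2 itself had 7514 ± 243 normalized counts in EV and 15517 ± 1177 in HMGB2OE cells (SD, n = 3 each), a rise of 1.05 on the log2 scale (DESeq2 adjusted p = 4.41e-22). Among markers of the melanocyte lineage, S100B had between 3346 and 3841 and MITF between 1381 and 1719 normalized counts per library. The pigment genes MLANA, TYR, DCT and TYRP1 had between 0 and 24 reads in a library. In the count column used, SOX10 was listed at 0 and PMEL had 342 reads over all libraries. The columns that count each strand separately held 253416 reads for SOX10 and 10158 for PMEL, so the levels of both are uncertain. Of 21 markers of immune cells, 6 were listed at 0 in every library, PTPRC (CD45) among them. The summed normalized count of those 21 genes lay between 563 and 602 with the empty vector and between 644 and 796 in HMGB2OE cells, and LYZ alone gave between 488 and 701. Because these are bulk samples, fewer cells with a transcript and less of it per cell cannot be told apart, and surface protein was not measured.

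The levels of the ligands spanned more than 3 orders of magnitude. Levels were compared between genes in TPM, in which counts are divided by the length of the annotated exons and scaled to the same total in every library. CD70, whose receptor on lymphocytes is CD27, stood highest, with 280 ± 44.2 TPM in EV and 282 ± 8.97 TPM in HMGB2OE cells (SD, n = 3 each), above 97.4% of protein-coding genes. NT5E came next with 178 ± 17.5 and 181 ± 10.3 TPM, and CD276 followed with 83.4 ± 6.55 and 88.7 ± 8.47 TPM. In both groups these 3 genes were separated from each other and from the rest in every library.

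The middle of the order was less clear. In EV cells NECTIN2 had 47.6 ± 8.25 TPM, TNFSF9 41.2 ± 1.01 TPM and CD47 39.7 ± 5.80 TPM (SD, n = 3 each), and the libraries of neighbours in this order overlapped. In HMGB2OE cells the order was TNFSF9 (46.5 ± 4.83 TPM), CD47 (45.0 ± 1.91 TPM) and NECTIN2 (40.3 ± 5.77 TPM), again with overlapping neighbours, so that no order among these 3 genes could be read from the data. PVR lay lower, at 23.8 ± 6.83 and 16.4 ± 2.67 TPM.

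PD-1 ligands were scarce in these cells. CD274 had 2.99 ± 0.414 TPM in EV and 2.08 ± 0.0455 TPM in HMGB2OE cells, and PDCD1LG2 had 0.787 ± 0.363 and 0.784 ± 0.0670 TPM (SD, n = 3 each). LGALS9 was close to the floor, with between 1 and 6 reads in a library.

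**Figure D1:**
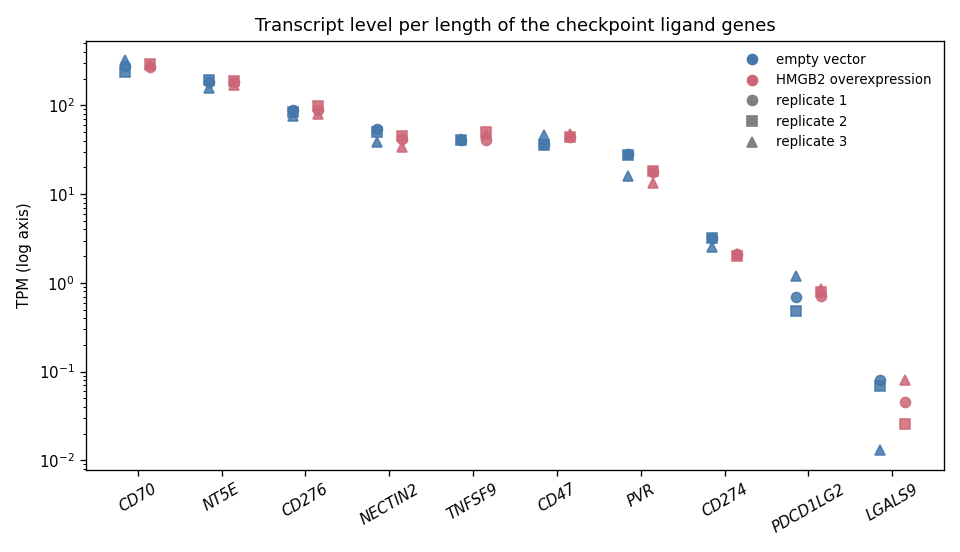
Transcript level of the 10 checkpoint ligand genes in TPM on a log axis, genes ordered by their mean over 6 libraries, with 1 point for each library (blue, empty vector; red, HMGB2 overexpression; the shape gives the replicate number). CD70, NT5E and CD276 stand above the rest in both groups, and CD274, PDCD1LG2 and LGALS9 lie at 3.23 TPM or below in every library.

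Promoter sequences are shown for 4 ligands: CD274, whose groups did not overlap, TNFSF9, which shares a motif with it, and the pair PVR and NECTIN2, which varied alike between libraries. Any link between these sequences and the counts was not tested. The stretches end at the first base before the annotated gene and were taken from RefSeq on GRCh38.p14, in which 8 of the 10 members had an entry. Capitals mark matches to the motifs of interferon regulatory factors (GAAA, any 2 bases, GAAA) and of STAT proteins (TTCNNNGAA), on either strand.
CD274 (plus strand, chr9:5450292-5450502): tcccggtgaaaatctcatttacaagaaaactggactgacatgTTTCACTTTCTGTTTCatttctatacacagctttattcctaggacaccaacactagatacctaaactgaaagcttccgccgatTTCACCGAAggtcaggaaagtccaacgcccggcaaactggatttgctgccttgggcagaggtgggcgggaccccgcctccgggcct
TNFSF9 (plus strand, chr19:6530776-6531025): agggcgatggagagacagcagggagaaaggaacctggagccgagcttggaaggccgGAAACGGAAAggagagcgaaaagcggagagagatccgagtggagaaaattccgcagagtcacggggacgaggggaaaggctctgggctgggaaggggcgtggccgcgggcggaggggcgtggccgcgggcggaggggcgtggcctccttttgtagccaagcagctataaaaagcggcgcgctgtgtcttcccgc
PVR (plus strand, chr19:44643660-44643797): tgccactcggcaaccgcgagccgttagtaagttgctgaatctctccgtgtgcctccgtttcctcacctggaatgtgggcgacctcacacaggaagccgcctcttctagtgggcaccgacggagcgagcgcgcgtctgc
NECTIN2 (plus strand, chr19:44846047-44846174): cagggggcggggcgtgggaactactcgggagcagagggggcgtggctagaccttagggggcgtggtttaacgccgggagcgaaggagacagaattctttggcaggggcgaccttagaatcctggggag

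Over the 250 bases before the RefSeq start, the interferon regulatory factor motif was found in 2 of the 8 promoters, CD274 and TNFSF9, and in 3.1% of 27305 promoters of that length. In CD274 it occurred 2 times with overlapping letters, at 208 to 199 and at 202 to 193 bases before the start, and in TNFSF9 it lay at 194 to 185 bases. The STAT motif was found in CD274 alone among the 8, at 125 to 117 bases, and in 6.8% of all promoters. The AP-1 motif TGANTCA (6.6% of all promoters) and the NF-kB motif (GGGA, any base, TT, any base, CC; 1.3%) had no match in the 8, and the hypoxia motif ACGTG (18.7%) matched in CD47. These are matches of letters, and binding was not measured.

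No checkpoint ligand was called between HMGB2OE and EV cells. Of 9 members that received an adjusted p from DESeq2 over all genes, 0 were higher and 0 lower at an adjusted p under 0.05. Of all 18878 tested genes, 4.93% were called, 2.29% higher (432) and 2.64% lower (498). At an unadjusted p under 0.05 there were 2, CD274 and PVR, both with fewer counts in HMGB2OE cells, against 14.3% of all genes. EdgeR also called 0 (2.81% of all genes called), and the same 2 genes had an unadjusted p under 0.05 there (16.5% of all genes). The log2 ratio given for each gene is the log2 fold change of HMGB2OE to EV as DESeq2 fitted it. Its median over the 9 was 0.03 (all tested genes, 0.003), with 6 positive and 3 negative values between -0.51 and 0.20.

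Among the PD-1 ligands, CD274 (ENSG00000120217; hg38 chromosome 9, 5450503 to 5470566) was the member whose groups did not overlap. Its normalized counts were 177, 179 and 149 in EV replicates 1, 2 and 3 and 123, 112 and 126 in HMGB2OE replicates 1, 2 and 3. Every EV library lay above every HMGB2OE library, as was the case for 10.7% of all tested genes, and for 21.8% with either group above the other. The mean went from 168 ± 16.6 to 120 ± 7.17 (SD, n = 3 each), a log2 ratio of -0.49 (SE 0.19, 95% interval -0.86 to -0.11, DESeq2 adjusted p = 0.148). Leaving out any library, or any of the other 8 settings tried, left its value between -0.60 and -0.44 and its adjusted p at 0.0614 or above. These values rest on between 112 and 202 reads per library.

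PDCD1LG2 (PD-L2; ENSG00000197646; chromosome 9, 5510531 to 5571282), which lies 40 kb from CD274, did not share that pattern. It had 22.2, 15.9 and 41.9 normalized counts in EV and 24.5, 25.6 and 30.4 in HMGB2OE libraries. The HMGB2OE values fell inside the EV range. Over 79 reads in EV and 80 in HMGB2OE libraries the scaled ratio was 1.03 (95% exact counting interval 0.744 to 1.42), and the model gave a log2 ratio of 0.02 (SE 0.46, DESeq2 adjusted p = 0.995). The fitted 95% interval of the log2 ratio, which includes the spread of the EV libraries, ran from -0.89 to 0.92.

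CD276 (B7-H3; ENSG00000103855; chromosome 15, 73683966 to 73714514), a B7 family protein that is abundant on many solid tumours, had 6474, 6337 and 6038 normalized counts in EV and 6808, 7168 and 6465 in HMGB2OE libraries. The groups overlapped in a single pair of libraries, EV replicate 1 and HMGB2OE replicate 3. The log2 ratio was 0.12 (SE 0.09, 95% interval -0.07 to 0.30, DESeq2 adjusted p = 0.675), an interval that allows at most a 1.23-fold rise.

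The ligands of the TIGIT family of receptors, PVR and NECTIN2, lay lower in HMGB2OE libraries and depended on EV replicate 3. PVR (CD155; ENSG00000073008; chromosome 19, 44643798 to 44666162) had 3919.5, 3852 and 2410.4 normalized counts in EV and 2581, 2551 and 2037 in HMGB2OE libraries. EV replicates 1 and 2 stood above all other libraries, and EV replicate 3 fell inside the HMGB2OE range. The means were 3394 ± 853 and 2389.6 ± 306 (SD, n = 3 each), a log2 ratio of -0.51 (SE 0.19, 95% interval -0.88 to -0.13, DESeq2 adjusted p = 0.117). Without EV replicate 3 the log2 ratio was -0.70 (DESeq2 adjusted p = 5.31e-08), and PVR was called. It was -0.39 without EV replicate 1, -0.41 without EV replicate 2 and -0.40 without HMGB2OE replicate 3 (DESeq2 adjusted p = 0.486 or above). Leaving out HMGB2OE replicate 1 or 2 gave no call either.

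NECTIN2 (CD112; ENSG00000130202; chromosome 19, 44846175 to 44889223), the ligand of TIGIT and PVRIG, had 2681, 2564 and 2070.2 normalized counts in EV and 2191, 2276 and 1865 in HMGB2OE libraries. As for PVR, EV replicates 1 and 2 stood above the HMGB2OE libraries and EV replicate 3 did not. The log2 ratio was -0.21 (SE 0.14, 95% interval -0.48 to 0.07, DESeq2 adjusted p = 0.568), and without EV replicate 3 it was -0.31 (DESeq2 adjusted p = 0.0288), a call. It was -0.14 without EV replicate 1 and -0.13 without HMGB2OE replicate 3 (DESeq2 adjusted p = 0.998 or above). Exons of PVR share 20.6% of their bases with CEACAM19 and ENSG00000279095 on the same strand, where a read is counted for no gene, and NECTIN2 shares 3.4% with a gene on the opposite strand. NECTIN2 also shares 4.31% of its 50-base words with other genes, a pseudogene copy among them.

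CD47 (ENSG00000196776; chromosome 3, 108043091 to 108091862), the signal against engulfment, moved the other way in the same libraries. It had 4008, 4026 and 5530.2 normalized counts in EV and 5089, 4838 and 5698 in HMGB2OE libraries. EV replicates 1 and 2 stood below all others, and EV replicate 3 fell inside the HMGB2OE range. The log2 ratio was 0.20 (SE 0.15, 95% interval -0.09 to 0.50, DESeq2 adjusted p = 0.627), and without EV replicate 3 it was 0.37 (DESeq2 adjusted p = 0.00167), a call. It was 0.12 without EV replicate 1 or 2 and 0.13 without HMGB2OE replicate 3 (DESeq2 adjusted p = 0.948 or above).

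NT5E (CD73; ENSG00000135318; chromosome 6, 85449584 to 85495791), which turns AMP into adenosine, was the best measured of the set, with 9676 or more reads in every library. It had 11025, 11792 and 10384 normalized counts in EV and 11713, 11521 and 11252 in HMGB2OE libraries, and all HMGB2OE values lay inside the EV range. The log2 ratio was 0.05 (SE 0.10, 95% interval -0.13 to 0.24, DESeq2 adjusted p = 0.89), which bounds any change at a 1.18-fold rise or a fall to 0.913 of the EV level.

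CD70 (ENSG00000125726; chromosome 19, 6583183 to 6604103) had 5689, 4886 and 7184 normalized counts in EV and 5854, 5962 and 6364 in HMGB2OE libraries, again inside the EV range. Its log2 ratio was 0.03 (SE 0.15, 95% interval -0.26 to 0.33, DESeq2 adjusted p = 0.965). TNFSF9 (ENSG00000125657; chromosome 19, 6531026 to 6535924), the ligand of the costimulatory receptor TNFRSF9 and 47.3 kb from CD70, had 885, 897 and 1002 in EV and 943, 1104 and 1154 in HMGB2OE libraries. HMGB2OE replicate 1 lay below EV replicate 3, and the other HMGB2OE libraries lay above all EV libraries. The log2 ratio of TNFSF9 was 0.20 (SE 0.13, 95% interval -0.05 to 0.45, DESeq2 adjusted p = 0.534).

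LGALS9 (galectin-9, a ligand of HAVCR2; ENSG00000168961; chromosome 17, 27629798 to 27649560) had 6, 6 and 1 reads in EV and 4, 2 and 6 reads in HMGB2OE libraries, and received no adjusted p. The scaled ratio of 12 to 13 reads was 0.937 (95% exact counting interval 0.391 to 2.23, without the spread between libraries). The fitted 95% interval of the log2 ratio, which includes that spread, ran from -2.09 to 2.02. A change of about 4-fold either way was thus not excluded at this depth. Of its 50-base words, 13.15% also occur in other genes, LGALS9B and LGALS9C among them, so its reads are uncertain.

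**Figure D2:**
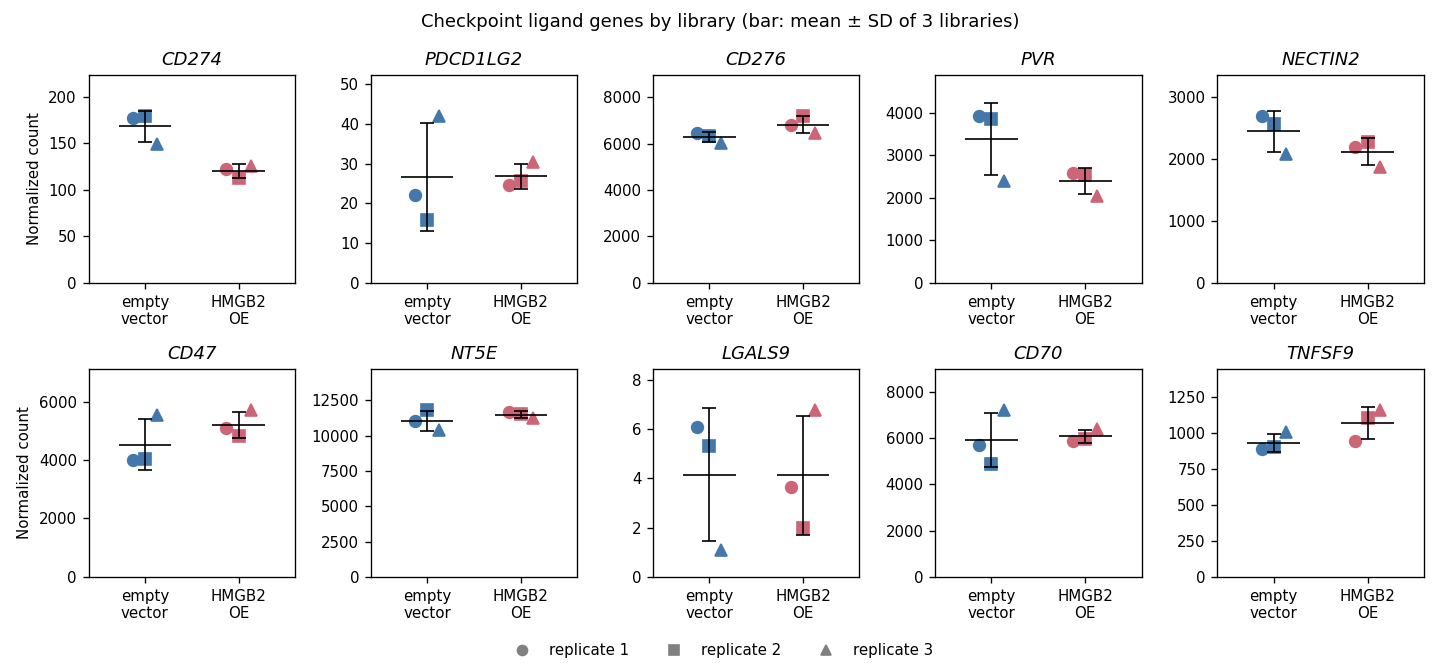
Normalized counts of the 10 checkpoint ligand genes in each library, with a linear axis from 0 for each gene, the mean as a horizontal line and the SD of 3 libraries as error bars (blue, empty vector; red, HMGB2 overexpression; the shape gives the replicate number). CD274 separates the groups, whereas for PVR, NECTIN2 and CD47 the triangle of empty vector replicate 3 falls among the HMGB2 overexpression libraries.

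The role of EV replicate 3 was examined across the set. In EV replicate 3, PVR was 38.0% and NECTIN2 21.1% below the mean of EV replicates 1 and 2, while CD47 was 37.7% and CD70 35.9% above it. HMGB2OE replicate 3 departed from the other HMGB2OE libraries in the same direction for 8 of the 10 members, PVR by -20.6% and CD47 by 14.8% among them, where 72.4% of all tested genes did so. CD274 and LGALS9 were the exceptions. Against EV replicates 1 and 2 alone, the HMGB2OE libraries did not overlap for 7 of the 10 members, where 48.9% of all tested genes did not.

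A term for the third replicates gave calls for the same members as leaving out EV replicate 3. PVR (log2 ratio -0.48, DESeq2 adjusted p = 1.58e-07), NECTIN2 (-0.21, adjusted p = 0.0305) and CD47 (0.22, adjusted p = 0.019) were called with that term. Of the 9 members with an adjusted p, 3 were thus called, 1 higher and 2 lower. With that term 17.4% of all genes were called (8.74% higher, 8.68% lower), and without EV replicate 3 it was 17.1% (8.03% higher, 9.1% lower). Replicates 1 and 2 alone also gave calls for these 3 genes (16.9% of all genes). CD274, CD276, NT5E, CD70, TNFSF9 and PDCD1LG2 were called in none of the 14 other fits. Labels name no batch, and the part of a shared difference of the third replicates in these results was not tested.

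**Figure D3:**
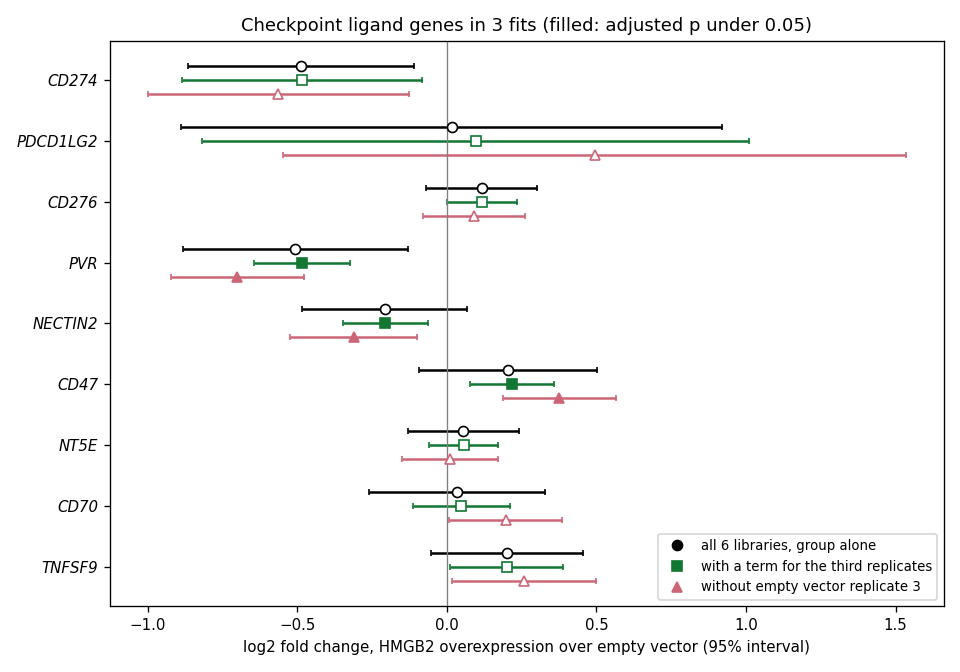
Log2 fold change of HMGB2 overexpression over empty vector for the 9 checkpoint ligand genes with an adjusted p, with 95% intervals, in 3 fits: all 6 libraries (black circles), with a term for the third replicates (green squares) and without empty vector replicate 3 (red triangles), where filled symbols mark an adjusted p under 0.05. PVR, NECTIN2 and CD47 are filled in the latter fits, and CD274 is unfilled in all 3 fits with its intervals below 0.

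The transcripts whose pattern over the 6 libraries was most like that of PVR, the member with the smallest p, were RRP12, TRIM25 and CSPG4. Pearson's r of log2 normalized counts was 0.999, 0.998 and 0.998 over 6 libraries, the highest among 13332 genes, and all values share the same libraries and scaling. CSPG4, a surface proteoglycan of melanoma cells, had 73844, 73004 and 42385 normalized counts in EV and 45253, 42954 and 33872 in HMGB2OE libraries. As for PVR, EV replicate 3 fell inside the HMGB2OE range of CSPG4. The log2 ratio of CSPG4 was -0.63 (DESeq2 adjusted p = 0.0447), whereas RRP12 (-0.41, adjusted p = 0.145) and TRIM25 (-0.35, adjusted p = 0.199) were not called. These genes were picked for their likeness to PVR, so their group differences are not separate from that of PVR.

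Genes near the ligands were examined because the set falls into clusters: CD274 lies beside PDCD1LG2, TNFSF9 beside CD70, and PVR and NECTIN2 lie on the same arm of chromosome 19. Within 100 kb of the members there were 33 protein-coding genes, members included, of which 25 received an adjusted p. A single gene was called, or 4% against 4.93% of all genes. It was TUBB4A, a tubulin gene 28.2 kb from TNFSF9 and 80.3 kb from CD70, with a log2 ratio of 0.62 (SE 0.16, DESeq2 adjusted p = 0.00303), and 17.1% of its exon bases overlap genes on the opposite strand. The genes on either side of CD274, PLGRKT (log2 ratio -0.14, DESeq2 adjusted p = 0.782) and PDCD1LG2, were not called.

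Other genes of the same pathways were described as lists. Of 23 further ligands, such as VSIR, CD40 and the butyrophilins, 17 received an adjusted p. DESeq2 called 0 of them (4.93% of all genes) and edgeR 0 (2.81%). At an unadjusted DESeq2 p under 0.05 there were 0 (14.3% of all genes), and the median log2 ratio was -0.04. The smallest p-values belonged to TNFRSF14, the ligand of BTLA (log2 ratio -0.37, DESeq2 adjusted p = 0.354), and NECTIN4, an adhesion protein that binds TIGIT (-0.92, adjusted p = 0.389). NECTIN4 had 84.9, 45.2 and 23.6 normalized counts in EV and 20.0, 23.6 and 38.3 in HMGB2OE libraries, and the groups overlapped. It was called without EV replicate 3 (-1.26, DESeq2 adjusted p = 0.0333) and in replicates 1 and 2 alone (-1.57, adjusted p = 0.0173). LGALS3, a galectin that binds LAG3 and named here after its values were seen, had the highest level of the 23, at 96.2 TPM in EV and 109 TPM in HMGB2OE cells.

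Most receptors that immune cells carry for these ligands were low in the count column used. Of 16, 14 lay under 10 TPM and 13 under 1 TPM there, among them PDCD1, TIGIT, CD226 and HAVCR2, and ICOS was listed at 0. Both of these counts include CD27, the receptor of CD70. CD27 had 1 read over all libraries in the count column used and 2078 in the stranded columns, so its level is uncertain. Neither DESeq2 (4.93% of all genes called) nor edgeR (2.81%) called any of the 6 with an adjusted p. An unadjusted DESeq2 p under 0.05 was passed by 0 (14.3% of all genes). The smallest p-values were those of LAG3 (log2 ratio 1.56, DESeq2 adjusted p = 0.381), with 16.9 normalized counts or fewer in every library, and CTLA4 (0.76, adjusted p = 0.442). CD96, a receptor for PVR on T and natural killer cells and named here after its values were seen, stood out with 128 TPM in EV and 121 TPM in HMGB2OE cells, above 93.6% of protein-coding genes. It had 9416, 10389 and 9910 normalized counts in EV and 9622, 9260 and 9690 in HMGB2OE libraries, a log2 ratio of -0.06 (SE 0.09, DESeq2 adjusted p = 0.883). Of its 50-base words 1.77% occur in other genes. SIRPA, the receptor of CD47, was also present, at 11.3 and 9.27 TPM.

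The adenosine list, with the enzymes before and after NT5E and the adenosine receptors, had 15 genes, 12 with an adjusted p. DESeq2 called 0 of them (4.93% of all genes) and edgeR 0 (2.81%). An unadjusted DESeq2 p under 0.05 was reached by 2 of the 12 genes, against 14.3% of all tested genes. They were DPP4, which anchors adenosine deaminase (log2 ratio 0.62, DESeq2 adjusted p = 0.18), and ADA, adenosine deaminase itself (-0.25, adjusted p = 0.219). ENTPD1 (CD39), which supplies AMP to NT5E, had 0.764 TPM in EV and 0.638 TPM in HMGB2OE cells against 178 and 181 TPM for NT5E.

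Genes that control PD-L1, from the interferon receptors to proteins that stabilise or degrade it, gave 1 call among 23 with an adjusted p, 0 higher and 1 lower (4.93% of all genes called), with 6 at an unadjusted DESeq2 p under 0.05 (14.3% of all genes). NFKB1, an NF-kB subunit, had 6464, 6554 and 5751 normalized counts in EV and 5138, 4745 and 4857 in HMGB2OE libraries, with no overlap. The groups did not overlap for 7 of the 23 genes, against 21.8% of all tested genes. NFKB1 fell by 0.35 on the log2 scale (SE 0.10, DESeq2 adjusted p = 0.0184). With edgeR it was not called (adjusted p = 0.0799), nor without EV replicate 1 (DESeq2 adjusted p = 0.321), EV replicate 2 (0.263) or HMGB2OE replicate 1 (0.174), 2 (0.297) or 3 (0.237). IRF1, an interferon-induced activator of CD274 transcription and named here after its values were seen, had 521, 509 and 465 in EV and 398, 384 and 322 in HMGB2OE libraries, also with no overlap. Its log2 ratio was -0.44 (SE 0.15, DESeq2 adjusted p = 0.0526), and 22.9% of its exon bases overlap genes on the opposite strand, IRF1-AS1 among them. In the sum of the stranded columns, which keeps reads of both strands, IRF1 was called (-0.50, adjusted p = 0.00114). It was also called with the filter of 10 counts (adjusted p = 0.0376), with the term for the third replicates (0.00427) and without EV replicate 3 (0.0139). IRF1 was not called with edgeR (adjusted p = 0.0966), nor by DESeq2 without independent filtering (0.0912) or in replicates 1 and 2 alone (0.052). Leaving out EV replicate 1 (DESeq2 adjusted p = 0.467), EV replicate 2 (0.334) or HMGB2OE replicate 1 (0.203), 2 (0.241) or 3 (0.49) gave no call either. CMTM6, which keeps PD-L1 at the surface, had a log2 ratio of 0.05 (adjusted p = 0.921). The median of the list was 0.00.

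Genes tied to CD47 gave 1 call among 10 (4.93% of all genes), with 3 at an unadjusted DESeq2 p under 0.05 (14.3% of all genes). CALR (calreticulin) is an endoplasmic reticulum chaperone that at the cell surface acts as a signal for engulfment. It had 34107, 34334 and 33772 normalized counts in EV and 44521, 50109 and 47750.3 in HMGB2OE libraries, with no overlap. The groups did not overlap for 3 of the 10 genes, against 21.8% of all tested genes. CALR rose by 0.48 on the log2 scale (SE 0.09, DESeq2 adjusted p = 1.82e-05) and was called in all 14 other fits. Of its exon bases, 9.6% overlap a gene on the opposite strand. EdgeR gave an adjusted p of 0.0192. QPCTL, the enzyme that modifies CD47 for SIRPA binding, had a log2 ratio of -0.16 (DESeq2 adjusted p = 0.678). The median of the list was -0.02.

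**Figure D4:**
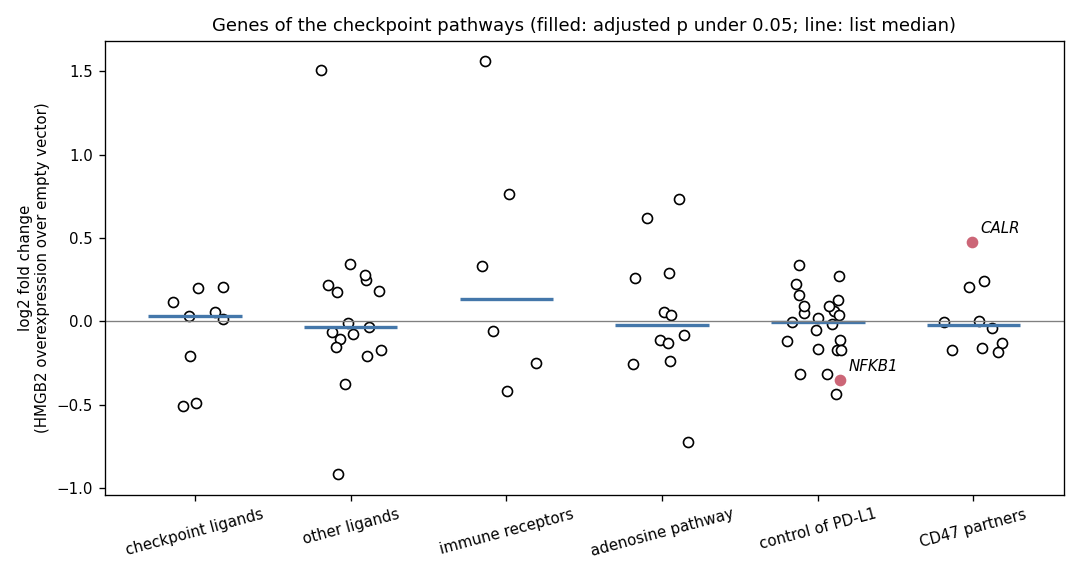
Log2 fold change of HMGB2 overexpression over empty vector for every gene with an adjusted p in the checkpoint ligand list and 5 lists of related genes, with 1 point a gene, filled where the adjusted p was under 0.05, and the list median as a blue line. All medians lie between -0.04 and 0.14, and CALR (0.48) and NFKB1 (-0.35) are the filled points.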

How the data were processed

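RNA was selected by its poly(A) tail, and libraries were made with a kit that does not mark strand. The authors trimmed reads with Trimmomatic, aligned them to GRCh38 (hg38) and deposited raw counts per gene in the layout of STAR, whose version and annotation release are not given in the sources used here. The 4 summary lines were left out. The first count column, which takes either strand, was used. It sets aside reads shared by genes as ambiguous (between 10.7% and 11.4% of reads). Symbols, positions and exon lengths came from GENCODE 44 on hg38, with 57532 of 58302 IDs matched and 0.0575% of counts unmatched.

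DESeq2 1.42.0 (R 4.3.3), the tool of the study, was run with defaults on all 32925 genes with a count, with the group as the factor in a Wald test, with Benjamini-Hochberg adjustment over 18878 genes and a threshold of 0.05. Normalized counts are counts divided by size factors. Intervals are 1.96 SE either side, and counting intervals cover counting error only. The tests were tried on simulated data with known changes. Alternatives were edgeR 4.0.16 (quasi-likelihood, TMM), TMM scaling in DESeq2, a filter of 10 counts in 3 libraries, DESeq2 without independent filtering, both stranded columns summed, a block for the replicate number, a term for the third replicates, replicates 1 and 2 alone and leaving out each library. Named were the 10 members, HMGB2, called genes of the related lists (or the 2 with the smallest p), called neighbours within 100 kb, and the 3 genes with mean normalized counts of 50 or more most like PVR. A gene of the lists is not reported here by name. Others were named after their values were seen or as examples. Members and lists were chosen with earlier results of these data known, and motifs after the member values were seen.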

Additional observations from a re-analysis of the deposited data

Results flagged for a closer look

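Reads in the stranded columns, which the comparisons do not use, drew attention for 3 genes of the related lists that kept under 10% of them in the first column. CD27, the receptor of CD70, had 2078 reads in the stranded sum over 6 libraries and 1 in the first column, with a log2 fold change of 0.01 in that sum (DESeq2 adjusted p = 0.993). SOX10 had 253416 reads there and 0 in the first column (log2 fold change -0.24, adjusted p = 0.654). PMEL had 10158 there and 342 in the first column (-0.22, adjusted p = 0.58). The stranded sum gives a read to the genes on both strands, so the source of these reads was not settled.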

How the results depend on the processing

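Over 14 alternatives, CD274, CD276, NT5E and TNFSF9 kept their direction and were not called. PDCD1LG2 and CD70 changed sign when a library was left out (between -0.26 and 0.49 and between -0.0892 and 0.20), and LGALS9, with few reads, in 5 of 12 alternatives. Genes called higher and lower over all numbered 215 and 255 under edgeR, 1372 and 1362 with the third-replicate term, 1205 and 1408 in replicates 1 and 2 alone, and between 155 and 1332 and between 208 and 1509 with 1 library left out, both highest without EV replicate 3. Among the ligands, 1 was called higher and 2 lower without EV replicate 3, in replicates 1 and 2 alone and with the third-replicate term, and leaving out a library gave between 0 and 1 higher and between 0 and 2 lower. The cause was not tested.

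With the replicate block, 888 genes were higher and 937 lower (12.1% in all), 1 ligand was lower (PVR, -0.48, DESeq2 adjusted p = 1.56e-05), IRF1 was called (adjusted p = 0.0247), and the lists on PD-L1 control and CD47 had 4 and 2 calls. Deviations of same-numbered libraries correlated at 0.0906, 0.142 and 0.349 over genes. Differently numbered libraries were not correlated beside them, so whether the numbers mark pairs was not settled. The main fit did not take the numbers as pairs.

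Members without overlap numbered 2 of 10 in the stranded sum (22.1% of all tested genes), 9 in replicates 1 and 2 alone (57.4%), 7 without EV replicate 3 (48.9%) and 1 or 2 without another library (between 26.9% and 30.3%). The median of the members was 0.13 in replicates 1 and 2 alone and between -0.0892 and 0.0897 with a library left out. Calls on the PD-L1 control list were 0 under edgeR, 2 with the count filter and in the stranded sum, 7 with the third-replicate term, 6 in replicates 1 and 2 alone and between 0 and 6 with a library left out. Those of the CD47 list were 3, 5 and between 1 and 4 in the last 3 of these, and the largest value with a library left out was without EV replicate 3 for both lists. The other ligands, adenosine genes and immune receptors had 17, 12 and 6 genes with an adjusted p in the main fit. Other ligands gave 1 call in replicates 1 and 2 alone and 1 with the third-replicate term. Adenosine genes gave 1 with that term. The other ligands, adenosine genes and immune receptors gave between 0 and 1 with a library left out. With the longest transcript as the length, 8 of 10 members kept their place in the order of EV levels.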
